A study of Rattus norvegicus with 151 samples.

Results

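Tat, Hpd, Hgd, Gstz1 and Fah encode the enzymes that take tyrosine to fumarate and acetoacetate. They were followed in liver and kidney of rats given MCHM, crude MCHM or PPH by mouth, each set against its own corn oil vehicle. The 5 genes are 5 of the 14218 genes with a probe set of 1 symbol on the array, and each had 1 probe set, so the choice of the brightest probe set per gene and tissue left out nothing. The genes were picked from earlier results of these arrays: the rise of Tat with 500 mg/kg MCHM in liver and its difference between MCHM and crude MCHM at that dose were known, so both are descriptions here, and their p-values are no independent support.

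MCHM is 4-methylcyclohexanemethanol, crude MCHM is the commercial mixture that holds it among other constituents, and PPH is propylene glycol phenyl ether. The rats were male Harlan Sprague-Dawley animals of 6 to 8 weeks that received 5 daily gavage doses. The labels name no engineered allele. The dose steps of both MCHM products were 0.1 and 1, then 10 and 100, and last 300 and 500 mg/kg. PPH was dosed in 5 steps (1, then 10, 100, 500 and lastly 1000 mg/kg), and the vehicle rats of each set received corn oil alone. Of 151 arrays, 150 were used, 81 of liver and 69 of kidney. Treated liver groups had 4 arrays each, or 3 at 0.1 mg/kg crude MCHM, against 5, 4 and 5 vehicle arrays in the MCHM, crude MCHM and PPH sets. Treated kidney groups had 4 arrays in the MCHM and PPH sets, or 3 at 0.1 mg/kg MCHM and at 500 mg/kg PPH, against 5 vehicle arrays in each set. In the crude MCHM kidney set 2 arrays at 0.1 to 100 mg/kg and 3 at 300 and 500 mg/kg stood against 3 vehicle arrays.

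The single array left out was kidney replicate 13 at 0.1 mg/kg MCHM, whose values sat 1 position off their probe sets. It correlated at 0.400 with the other kidney arrays as deposited and at 0.954 once moved by 1 position, while the remaining arrays correlated at 0.987 to 0.995. The values are log2 intensities with array medians of 5.22 to 5.38, and the number of arrays limits their precision. In the labelled tissues 7 of 7 hepatocyte markers were higher in liver (mean 13.82 in liver and 5.22 in kidney) and 6 of 6 proximal tubule markers were higher in kidney (mean 5.49 in liver and 11.83 in kidney). Each array is 1 numbered rat, so p-values measure the spread between rats of this study.

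Phenylalanine is turned into tyrosine by phenylalanine hydroxylase with a pterin cofactor, and tyrosine is then broken down mainly in hepatocytes, with the later enzymes also working in kidney proximal tubule. Tat, tyrosine aminotransferase, moves the amino group off tyrosine and is the usual rate-setting step, and in rat liver it is a classic gene induced by glucocorticoids, glucagon and fasting. Hpd, the 4-hydroxyphenylpyruvate dioxygenase, makes homogentisate, and Hgd, homogentisate dioxygenase, opens its ring. Gstz1, the zeta glutathione transferase, isomerizes maleylacetoacetate, and Fah, fumarylacetoacetate hydrolase, releases fumarate and acetoacetate. In humans, loss of HGD causes alkaptonuria and loss of FAH causes hereditary tyrosinemia.

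The promoters of the 4 genes that passed a test against vehicle are shown so that their start regions can be set side by side. Each is the window of the RefSeq promoter table for the rat assembly GRCr8, 5′ to 3′ on the gene's strand, and capitals mark the motifs found. The windows of Tat and Hpd run from 250 bases before to 50 bases after the outer 5′ end of the annotated gene. Those of Hgd and Gstz1 reach 241 and 220 bases before that end and 59 and 80 bases inside it, and that of Fah, searched but not shown, 147 before and 153 inside. They lie at chr19:54856354-54856653 on the plus strand (Tat), chr12:39041996-39042295 on the plus strand (Hpd), chr11:76643718-76644017 on the minus strand (Hgd) and chr6:112525356-112525655 on the plus strand (Gstz1). The genes themselves span chr19:54856604-54867168 (Tat), chr12:39042246-39053596 (Hpd), chr11:76592202-76643776 (Hgd), chr6:112525576-112536228 (Gstz1) and chr1:147957931-147980708 (Fah).
Tat: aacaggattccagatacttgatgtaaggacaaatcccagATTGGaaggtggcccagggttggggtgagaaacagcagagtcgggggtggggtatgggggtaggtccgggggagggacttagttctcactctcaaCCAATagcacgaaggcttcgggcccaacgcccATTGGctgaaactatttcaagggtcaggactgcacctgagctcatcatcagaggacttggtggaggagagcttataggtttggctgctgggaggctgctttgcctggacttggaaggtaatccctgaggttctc
Hpd: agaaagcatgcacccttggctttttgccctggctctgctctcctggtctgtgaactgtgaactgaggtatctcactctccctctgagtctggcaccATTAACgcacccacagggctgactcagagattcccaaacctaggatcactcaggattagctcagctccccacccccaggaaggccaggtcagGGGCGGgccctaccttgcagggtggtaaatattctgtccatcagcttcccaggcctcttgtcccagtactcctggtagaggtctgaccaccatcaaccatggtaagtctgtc
Hgd: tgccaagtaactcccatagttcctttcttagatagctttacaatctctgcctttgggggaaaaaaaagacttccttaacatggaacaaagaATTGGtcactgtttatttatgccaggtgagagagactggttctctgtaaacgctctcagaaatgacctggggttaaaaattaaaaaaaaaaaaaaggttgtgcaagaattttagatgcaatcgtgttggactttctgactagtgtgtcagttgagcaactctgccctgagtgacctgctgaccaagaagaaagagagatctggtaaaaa
Gstz1: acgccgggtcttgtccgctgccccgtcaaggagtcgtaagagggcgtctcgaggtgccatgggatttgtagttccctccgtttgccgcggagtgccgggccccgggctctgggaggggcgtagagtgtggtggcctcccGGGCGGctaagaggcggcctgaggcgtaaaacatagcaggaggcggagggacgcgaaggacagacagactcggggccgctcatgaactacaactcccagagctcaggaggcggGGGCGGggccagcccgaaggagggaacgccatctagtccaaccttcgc
Both strands were searched for 4 motifs, and no matches overlapped. A CCAAT box was read as CCAAT. For the TATA box the letters searched were TATAAA. The GC box was searched as GGGCGG. An HNF1 core, named for the liver factor, was searched as GTTAAT. The Tat window held 3 CCAAT boxes, at bases 40 to 44, at bases 167 to 171 and at a place between them, and the Hgd window held 1, at bases 92 to 96. CCAAT was present in 37.5% of 33469 RefSeq promoter windows of the same length. The Hpd window held 1 GC box at bases 189 to 194 and 1 HNF1 core at bases 97 to 102, and the Gstz1 window held 2 GC boxes at bases 140 to 145 and 253 to 258. GC boxes occurred in 33.1% of all windows and the HNF1 core in 7.45%. TATAAA, present in 14.2% of windows, was in none of the 5 windows, that of Fah included. These matches are letters only and were not tested as binding sites.

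In liver all 5 genes were well expressed, and in kidney all but Tat. Tat lay between 7.70 and 10.71 in liver (median 9.27 of 81 arrays) and between 2.97 and 4.31 in kidney (median 3.64 of 69 arrays). Its kidney values were under the level used as a filter there, 4.66, on every array, so Tat was tested in liver alone. The median of Tat in liver was 49.4 times that in kidney, a description from a brightness scale.

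The remaining 4 enzymes were bright in both tissues. Hpd had a median of 12.99 in liver (12.74 to 13.24) and 12.23 in kidney (11.70 to 12.77). The median of Gstz1 was 11.86 in liver (11.64 to 12.14) against 9.73 in kidney (9.29 to 10.16), without overlap. Fah had a median of 11.87 in liver (11.67 to 12.26) and Hgd had 10.73 to 11.23 there. In kidney Fah ran from 10.80 to 11.42 and Hgd from 10.42 to 11.36. Between tissues the medians were 2.13 apart for Gstz1, 0.77 for Hpd, 0.72 for Fah and 0.07 for Hgd, with liver higher each time, and the Hgd ranges overlapped almost wholly. Probe sets differ in brightness, so levels of different genes were not set against each other.

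The 5 genes differed in how much they varied among rats of the same group. The pooled SD of Tat within liver groups was 0.553, the 99.1st percentile among 11624 liver genes, whose median SD was 0.162. The other 4 were among the steadier liver genes, with SDs of 0.076 for Hpd, 0.093 for Hgd, 0.084 for Gstz1 and 0.073 for Fah. In kidney their SDs were 0.145, 0.178, 0.120 and 0.121 in the same order, near the median gene's 0.145. The group means of Tat spanned 1.39 over the 20 liver groups, from the MCHM vehicle at the low end to 500 mg/kg MCHM at the high end, while those of the other 4 spanned 0.26 to 0.33.

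The first question was which of these genes changed with MCHM in liver. Tat rose at 500 mg/kg. Its values there were 10.64, 9.45, 9.87 and 10.26 (mean 10.05 ± 0.51, SD, n = 4), against 8.67, 9.15, 8.66, 8.38 and 8.47 in vehicle livers (mean 8.67 ± 0.30, SD, n = 5). Every treated value lay above every vehicle value. The change was 1.39 log2 units (SE 0.30, 95% interval 0.77 to 2.00), or 2.62-fold, with an adjusted p of 0.0298 from limma with Benjamini-Hochberg adjustment over 11335 genes. This was 1 of 5 genes called, and 0.512% of all genes tested were called at that dose. In bulk tissue more cells of a type and more RNA per cell cannot be told apart.

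The values of Tat in the lower dose groups were mostly above its vehicle. At 0.1 mg/kg MCHM it had 9.47, 9.32, 9.26 and 9.54, all above the 5 vehicle values, with a change of 0.73 (95% interval 0.11 to 1.35). At 1 mg/kg it had 8.90, 9.98, 8.65 and 9.04, a change of 0.47. At 10 mg/kg the values were 9.48, 9.38, 10.49 and 8.74, a change of 0.86. One rat at 10 mg/kg was about as high as the top rats at 500 mg/kg, and the lowest was within the vehicle range. At 100 mg/kg it had 9.60, 9.17, 10.20 and 8.96, a change of 0.82, and at 300 mg/kg 9.75, 9.12, 8.91 and 9.45, a change of 0.64. The adjusted p was 0.999, 0.882, 0.723, 0.999 and 0.61 at these 5 doses, where limma called 0 of the 5 genes and 1, 0, 1, 1 and 1 of them had an unadjusted p under 0.05. The background share was 0 at 0.1, 1, 10 and 100 mg/kg and 0.0265% at 300 mg/kg. All doses of a chemical share its vehicle arrays, so these changes are not independent of one another.

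**Figure D1:**
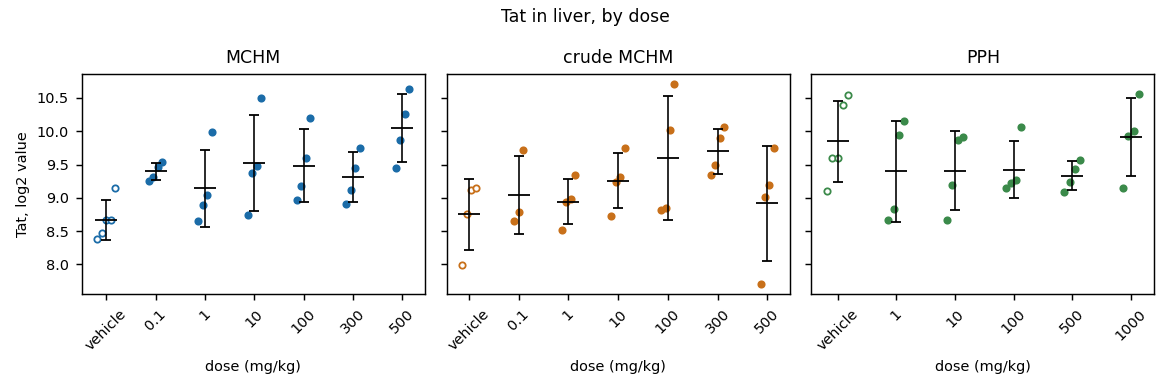
Log2 values of Tat in each liver array (points) by dose of MCHM, crude MCHM and PPH, with vehicle at the left of each panel (open points); bars are the group mean and SD. At 500 mg/kg MCHM the 4 values lie above all 5 vehicle values, while at 500 mg/kg crude MCHM they run from 7.70 to 9.75 around the vehicle range.

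Across MCHM doses ranked from vehicle to 500 mg/kg, Tat rose by 0.15 per dose step (95% interval 0.07 to 0.24, limma adjusted p 0.0408), 1 of 5 genes against 2.38% of all genes called for a trend. Tat at 500 mg/kg lost its call without treated replicate 40, 42 or 43 (adjusted p 0.107, 0.0898 and 0.0528) and without vehicle replicate 3, 4, 7 or 8 (0.063, 0.0577, 0.0723 and 0.0703), with a change of 1.19 to 1.59 over the 29 limma fits that each left out 1 array. The trend lost its call in 15 of those 29 fits, with adjusted p of 0.0502 to 0.108: without replicates 40, 42 and 43 at 500 mg/kg, 33 and 37 at 300 mg/kg, 31 at 100 mg/kg, 16 and 19 at 1 mg/kg, 10, 12 and 13 at 0.1 mg/kg, and vehicle replicates 3, 4, 7 and 8. It also missed with all chemicals in 1 fit (limma adjusted p 0.0622).

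The steps after Tat had no called change with MCHM in liver. Hgd had 10.93, 11.06, 11.18 and 11.15 at 500 mg/kg, against 10.78, 10.86, 10.78, 10.99 and 10.94 in vehicle livers, a change of 0.21 (95% interval 0.08 to 0.34, limma adjusted p 0.132). The lowest treated value lay inside the vehicle range. Hpd was 0.13 above vehicle (limma adjusted p 0.346), and Gstz1 and Fah differed from it by −0.02 and 0.06. At 0.1 to 300 mg/kg the changes of these 4 genes ran from −0.07 to 0.10. The MCHM trends were 0.021 per dose step for Hgd (limma adjusted p 0.219) and 0.021 for Hpd (limma adjusted p 0.175). With Tat included, 3 of 5 genes had an unadjusted p under 0.05 at 500 mg/kg, beside 1516 of 11335 over all genes. For the trend these counts were 3 of 5 and 1929 of 11335.

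Markers of other liver cells were measured on the same arrays as the Tat rise. The mean of 4 of 4 macrophage markers was 8.05 to 8.53 at 500 mg/kg MCHM and 8.41 to 8.57 in vehicle livers, and that of 4 fibroblast markers was 7.60 to 8.05 and 7.82 to 8.32, each list tested whole with 0 called. The hepatocyte marker mean was lower in every treated liver (13.75 to 13.78) than in any vehicle liver (13.79 to 13.85). The part of these cell types in the change of Tat was not tested.

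Crude MCHM gave no called change of the 5 genes at any dose in liver. Tat had 7.70, 9.20, 9.75 and 9.01 at 500 mg/kg (mean 8.91 ± 0.87, SD, n = 4), against 7.99, 9.12, 8.75 and 9.15 in vehicle livers (mean 8.75 ± 0.54, SD, n = 4). The groups overlapped throughout, and the change was 0.16 (95% interval −0.67 to 0.99, limma adjusted p 0.916). At 300 mg/kg Tat had 9.49, 9.34, 10.07 and 9.90, all above the vehicle values, a change of 0.95 (95% interval 0.12 to 1.78) with a limma adjusted p of 0.277. At 100 mg/kg 10.71, the highest Tat value of all liver arrays, stood beside 8.81, 8.85 and 10.01, a change of 0.84 (limma adjusted p 0.656). The dose trend of Tat was 0.087 per step (limma adjusted p 0.449).

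Hgd rose with the dose of crude MCHM. It had 11.23, 11.01, 11.09 and 11.11 at 500 mg/kg, against 10.84, 10.86, 10.84 and 10.98 in vehicle livers, a change of 0.23 (95% interval 0.07 to 0.39, limma adjusted p 0.17). At 300 mg/kg it had 11.10, 11.09, 11.05 and 11.09, a change of 0.20 (limma adjusted p 0.204). Neither treated group overlapped the vehicle livers. Group means from vehicle upwards were 10.88, 10.82, 10.91, 10.92, 11.01, 11.08 and 11.11. The trend was 0.047 per dose step (95% interval 0.025 to 0.069, limma adjusted p 0.0213), 1 of 5 genes against 1.91% of all genes. It lost its call in 1 of 27 fits that left out 1 array, the fit without vehicle rat Crude_MCHM-105 (limma adjusted p 0.0525).

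Hpd, 1 step before Hgd, was 0.18 above vehicle at 300 mg/kg crude MCHM without overlap (limma adjusted p 0.153) and 0.14 above it at 500 mg/kg (limma adjusted p 0.313). Gstz1 and Fah changed by −0.07 to 0.08 at all 6 doses. With limma 0 of 5 genes were called at each dose, and 0, 0, 0, 2, 3 and 2 of them had an unadjusted p under 0.05 from 0.1 to 500 mg/kg. The background share was 0 at 0.1 to 100 mg/kg, 1.01% at 300 mg/kg and 0.675% at 500 mg/kg.

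**Figure D2:**
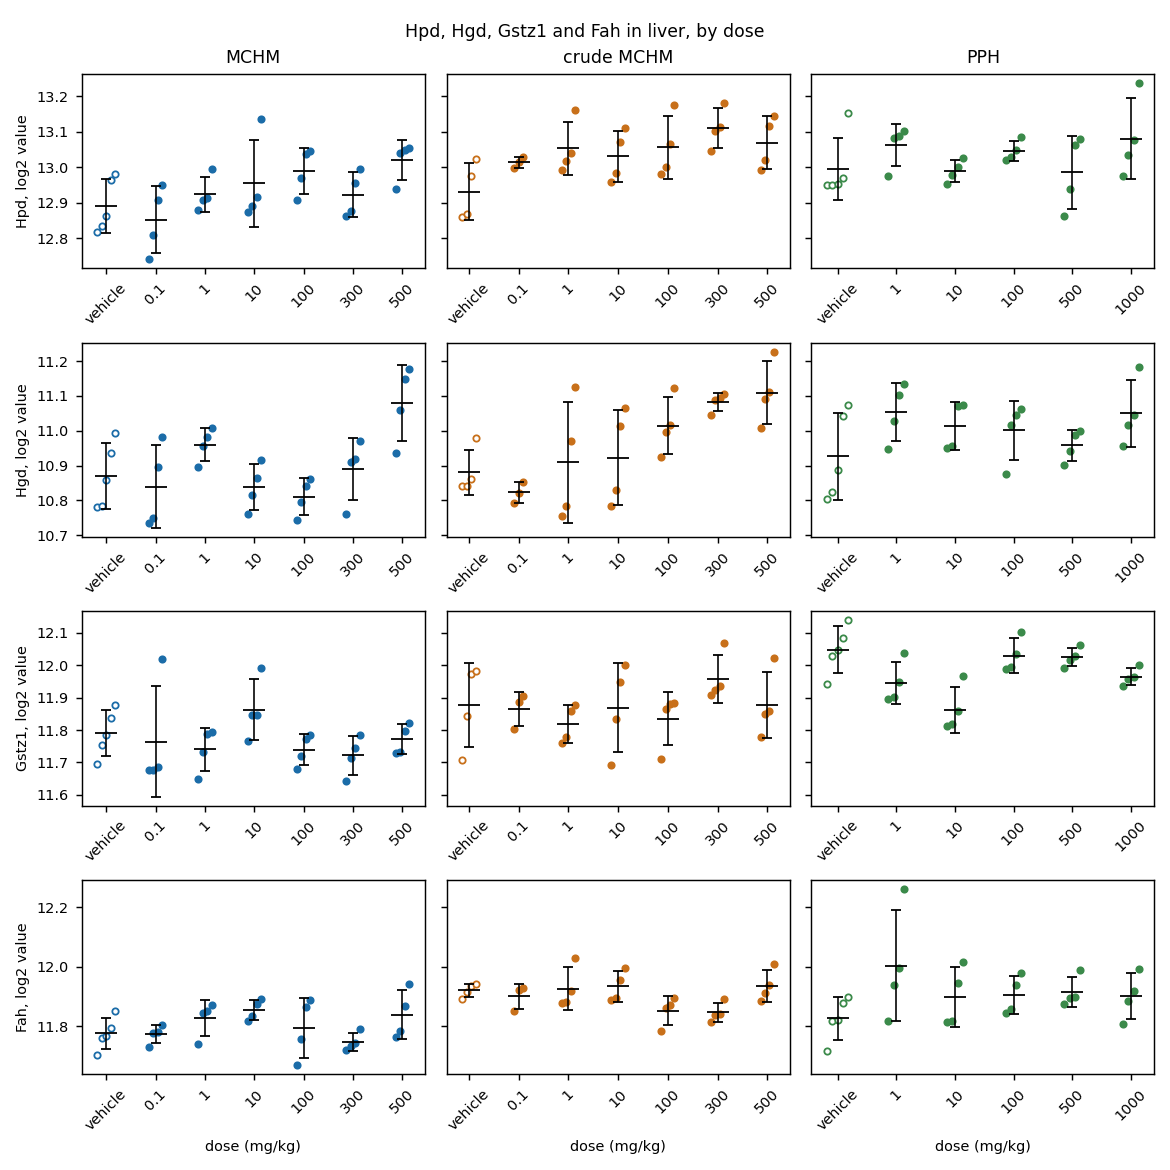
Log2 values of Hpd, Hgd, Gstz1 and Fah in each liver array by dose of the 3 chemicals, vehicle at the left with open points; bars are mean and SD, and each gene has its own axis. The Hgd values at 300 and 500 mg/kg crude MCHM lie above the 4 vehicle values, and most other groups overlap their vehicle.

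PPH left the 5 genes without a called change in liver. Tat had 9.93, 10.00, 9.14 and 10.56 at 1000 mg/kg, against 9.59, 10.55, 9.11, 9.59 and 10.40 in vehicle livers, a change of 0.06 (95% interval −0.66 to 0.78, limma adjusted p 0.968). At 1, 10, 100 and 500 mg/kg its changes were −0.45, −0.44, −0.42 and −0.52, each with an interval that included 0. The change of Gstz1 was −0.19 at 10 mg/kg (limma adjusted p 0.206), and Fah was 0.18 above vehicle at 1 mg/kg (limma adjusted p 0.387). At 1000 mg/kg Hpd, Hgd, Gstz1 and Fah differed from vehicle by 0.09, 0.12, −0.08 and 0.07. With limma 0 of 5 genes were called at each dose, and 1, 1, 0, 0 and 0 had an unadjusted p under 0.05 from 1 to 1000 mg/kg. The background share was 0 at 1 and 100 mg/kg, 0.00882% at 10 mg/kg, 0.0882% at 500 mg/kg, 1.75% at 1000 mg/kg and 1.32% for the trend, where 0 of 5 genes passed and 0 had an unadjusted p under 0.05.

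Over all doses in liver 1 of 85 gene and dose tests of the members passed, against 0.240% over all genes, and 16 of them (18.8%) had an unadjusted p under 0.05, against 8.88% over all genes (3.81% to 14.4% by dose). Of 15 trend tests 2 passed, against 1.87% over all genes, and 5 (33.3%) had an unadjusted p under 0.05, against 15.5%. The tests share vehicle arrays and Tat was chosen from one of them, so these shares are descriptions.

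The same question in kidney concerned 4 genes. With MCHM, Hpd rose at 500 mg/kg. It had 12.65, 12.46, 12.46 and 12.77 (mean 12.59 ± 0.15, SD, n = 4), against 12.10, 12.07, 12.09, 12.23 and 12.03 in vehicle kidneys (mean 12.10 ± 0.07, SD, n = 5). The groups did not overlap. The change was 0.48 (SE 0.07, 95% interval 0.33 to 0.63), or 1.40-fold, with a limma adjusted p of 0.00561. Hpd was 1 of 4 genes called against 0.0177% of all genes, which is 2 of 11277.

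At the lower doses Hpd was 0.17, 0.24, 0.17, 0.19 and 0.25 above vehicle, from 0.1 to 300 mg/kg, and its values at 100 and 300 mg/kg did not overlap those of vehicle kidneys. The trend of Hpd was 0.056 per dose step (95% interval 0.035 to 0.076, limma adjusted p 0.0202). Gstz1 also had a called trend, 0.047 per step (95% interval 0.027 to 0.066, limma adjusted p 0.0475), with changes of −0.20 at 0.1 mg/kg, 0.14 at 300 mg/kg and 0.20 at 500 mg/kg (limma adjusted p 0.325 at the top dose). These were 2 of 4 genes against 0.124% of all genes. Hgd and Fah changed by −0.08 to 0.08 at all 6 doses. At each dose from 0.1 to 300 mg/kg limma called 0 of 4 genes, 2, 1, 1, 1 and 2 of them had an unadjusted p under 0.05, and the background share was 0.

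The kidney calls with MCHM rested on few arrays. The Hpd call at 500 mg/kg was lost without replicate 40 at that dose (limma adjusted p 0.056), and its trend without replicates 40 or 42 at 500 mg/kg or replicate 10 at 0.1 mg/kg (0.0645, 0.0979 and 0.0832). The Gstz1 trend lost its call in 17 of 28 fits that left out 1 array, with a limma adjusted p of up to 0.135: without replicates 40, 41 and 42 at 500 mg/kg, 36 and 37 at 300 mg/kg, 27 and 31 at 100 mg/kg, 23 at 10 mg/kg, 16, 19 and 20 at 1 mg/kg, 10 and 12 at 0.1 mg/kg, and vehicle replicates 3, 4, 6 and 8. Markers of fat were high in replicate 36 at 300 mg/kg and replicate 42 at 500 mg/kg, where the mean of 4 markers, 2 of them above the filter level, was 7.59 and 6.85, against a median of 5.26 over the set. Without both, a choice made after seeing the data, Hpd at 500 mg/kg was 0.42 above vehicle with a limma adjusted p of 0.0513, and the trends of Hpd and Gstz1 had adjusted p of 0.114 and 0.184. Hepatocyte markers averaged 4.95 to 5.48 at 500 mg/kg and 4.90 to 7.22 in vehicle kidneys. Proximal tubule markers averaged 11.65 to 11.88 and 11.50 to 11.90. The hepatocyte mean joins markers that went opposite ways at 500 mg/kg. Alb changed by −0.96 (limma adjusted p 0.769), with a highest vehicle value of 10.19, and Cyp2e1 by 0.60 (limma adjusted p 0.143).

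Crude MCHM changed none of the 4 genes past the threshold in kidney, in groups of 2 or 3 arrays. Gstz1 had 10.02, 10.05 and 10.04 at 500 mg/kg, against 9.89, 9.69 and 9.73 in vehicle kidneys, a change of 0.27 (95% interval 0.06 to 0.47, limma adjusted p 0.318). Those 3 values lay above all vehicle values. Hpd was 0.30 above vehicle at 300 mg/kg, and Fah 0.23 above it at 500 mg/kg (limma adjusted p 0.492). In both the lowest of 3 treated values barely cleared the highest of 3 vehicle values. These were 12.23 and 12.22 for Hpd, and 11.26 and 11.25 for Fah. With limma 0 of 4 genes were called at any dose or for the trend, 0 had an unadjusted p under 0.05 at 0.1 to 100 mg/kg and 1 each at 300 mg/kg, at 500 mg/kg and for the trend, and the background share was 0 throughout.

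**Figure D3:**
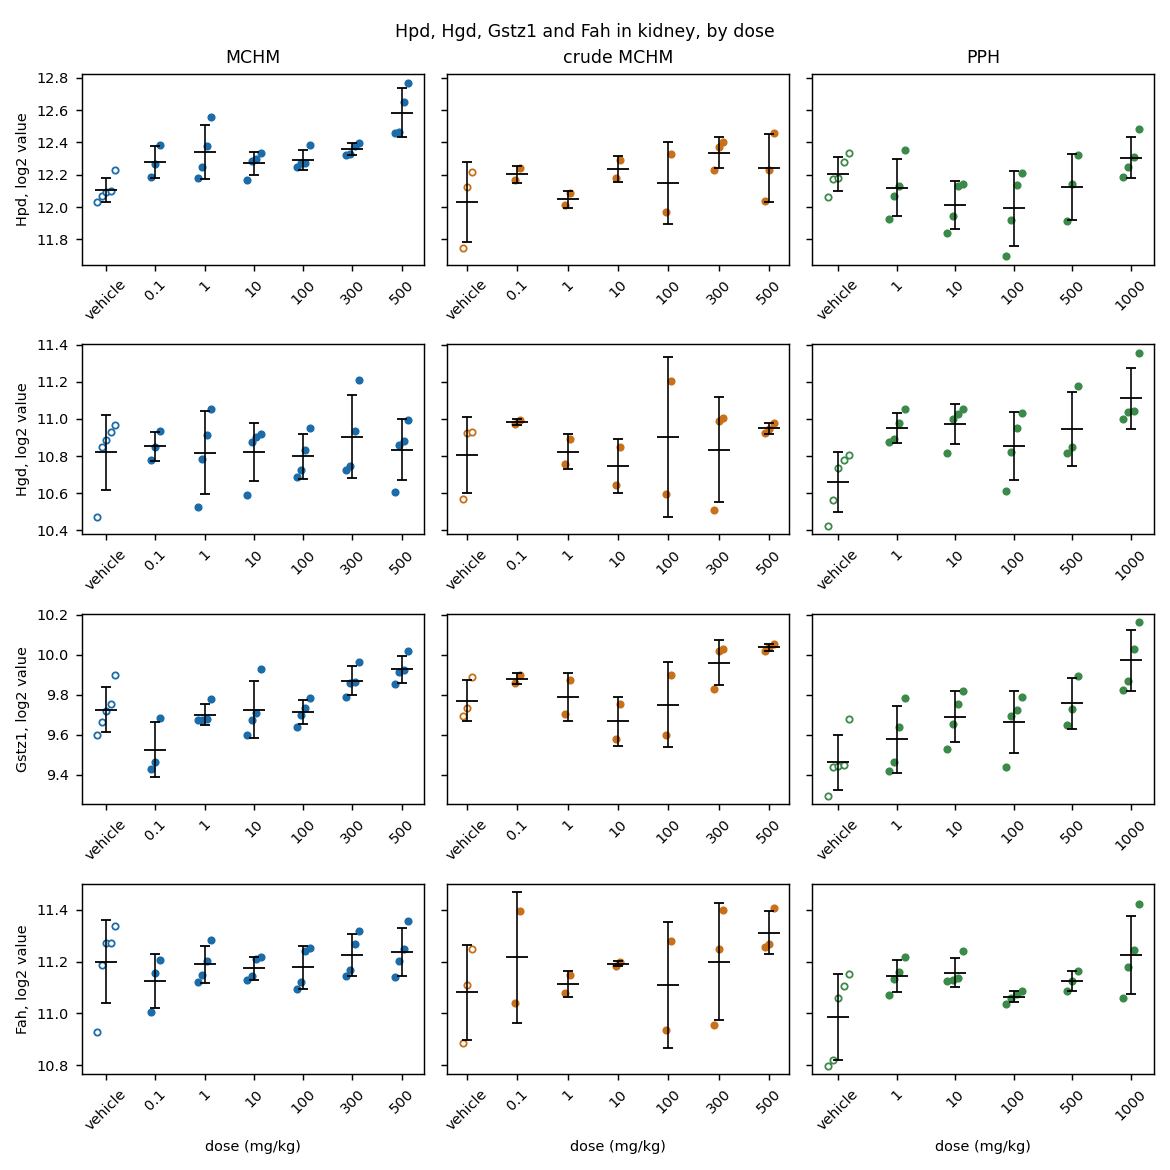
Log2 values of Hpd, Hgd, Gstz1 and Fah in each kidney array by dose of the 3 chemicals, vehicle at the left with open points; bars are mean and SD, and each gene has its own axis. Hpd at 500 mg/kg MCHM (12.46 to 12.77) and Hgd and Gstz1 at 1000 mg/kg PPH lie above all of their vehicle values.

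Gstz1 and Hgd were higher than their vehicle in kidney at 1000 mg/kg PPH. Gstz1 had 9.87, 10.16, 10.03 and 9.83 (mean 9.97 ± 0.15, SD, n = 4), against 9.44, 9.45, 9.44, 9.29 and 9.68 in vehicle kidneys (mean 9.46 ± 0.14, SD, n = 5). No treated value fell within the vehicle range. The change was 0.51 (SE 0.10, 95% interval 0.31 to 0.71), or 1.42-fold, with a limma adjusted p of 0.00458, and the call was kept in every fit that left out 1 array. At 1, 10, 100 and 500 mg/kg Gstz1 was 0.11, 0.23, 0.20 and 0.29 above vehicle, and its trend was 0.087 per dose step (95% interval 0.052 to 0.122, limma adjusted p 0.00588), 1 of 4 genes against 1.58% of all genes. The PPH vehicle mean of Gstz1 was the lowest of the 20 kidney groups, beside 9.72 in MCHM and 9.77 in crude MCHM vehicle kidneys.

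Hgd, which acts just before Gstz1, had 11.04, 11.36, 11.04 and 11.00 at 1000 mg/kg PPH (mean 11.11 ± 0.17, SD, n = 4), against 10.78, 10.57, 10.73, 10.42 and 10.81 in vehicle kidneys (mean 10.66 ± 0.16, SD, n = 5). These groups did not overlap either. The change was 0.45 (SE 0.10, 95% interval 0.24 to 0.66), or 1.36-fold, with a limma adjusted p of 0.0182. It lost its call without rat PPH-236 at 1000 mg/kg (0.101) and without vehicle rat PPH-203 or PPH-205 (0.0567 and 0.0549), with changes of 0.37 to 0.48. Hgd was 0.29 and 0.31 above vehicle at 1 and 10 mg/kg and 0.28 above it at 500 mg/kg without overlap. Its trend of 0.060 per step missed the threshold (limma adjusted p 0.098). Group means from 1 to 1000 mg/kg were 10.95, 10.97, 10.85, 10.95 and 11.11. The PPH vehicle mean of Hgd was the lowest of the 20 kidney groups, beside 10.82 in MCHM and 10.81 in crude MCHM vehicle kidneys.

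Fah and Hpd did not pass with PPH. Fah had 11.24, 11.42, 11.06 and 11.18 at 1000 mg/kg, against 11.10, 10.82, 11.06, 10.80 and 11.15 in vehicle kidneys, a change of 0.24 (95% interval 0.09 to 0.39, limma adjusted p 0.099), and it passed in the fit without vehicle rat PPH-208 (limma adjusted p 0.0407). Hpd changed by 0.10 (limma adjusted p 0.721). Together 2 of 4 genes were called at 1000 mg/kg, 3 had an unadjusted p under 0.05, and the background share was 2.03%. At 1, 10, 100 and 500 mg/kg limma called 0 of 4, with 2, 3, 1 and 2 at an unadjusted p under 0.05, and the background share was 0. Proximal tubule markers (6 of 6 tested, 0 called) averaged 11.80 to 11.98 at 1000 mg/kg and 11.88 to 12.06 in vehicle kidneys, and fibroblast markers (4 of 4 tested, 0 called) averaged 8.35 to 8.87 and 8.82 to 9.29. Their part in these changes was not tested.

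Over all doses in kidney 3 of 68 gene and dose tests of the members passed, all 3 higher than vehicle, against 0.121% over all genes. An unadjusted p under 0.05 was found in 22 of them (32.4%), against 6.76% over all genes (2.88% to 15.4% by dose). Of 12 kidney trend tests 3 passed, against 0.569% over all genes, and 6 had an unadjusted p under 0.05, against 10.4%. These tests share vehicle arrays as well.

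**Figure D4:**
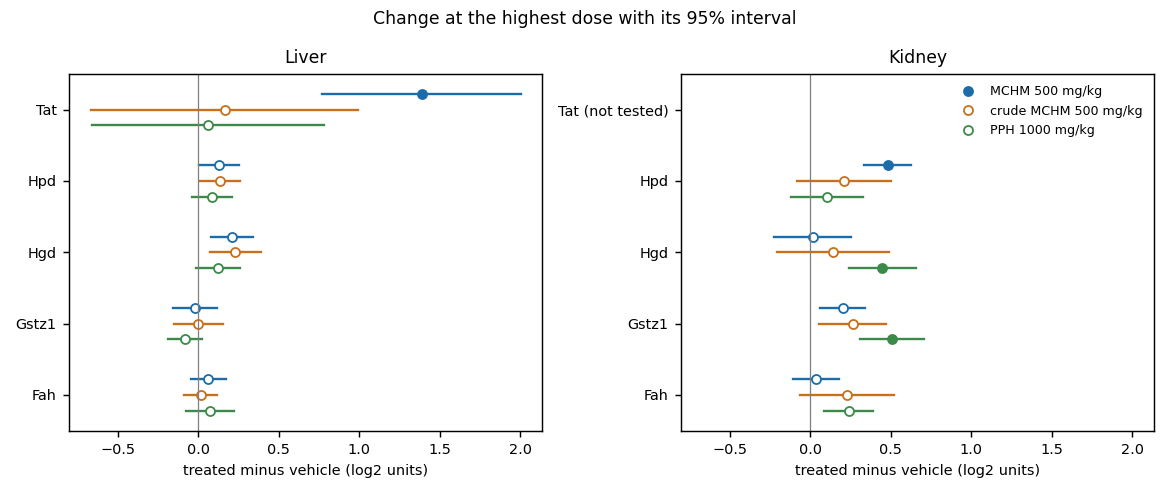
Treated minus vehicle change at the highest dose, in log2 units, with its 95% interval, for each gene in liver and kidney; filled points passed the limma adjusted p threshold of 0.05. Filled points are Tat with MCHM in liver (1.39), Hpd with MCHM in kidney (0.48) and Hgd (0.45) and Gstz1 (0.51) with PPH in kidney.

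The responses of the same gene in the 2 tissues were then compared at the highest dose, liver minus kidney. Gstz1 differed with 1000 mg/kg PPH: its change was −0.08 in liver and 0.51 in kidney, a difference of −0.59 (95% interval −0.81 to −0.38, limma adjusted p 0.0024). It was 1 of 4 genes against 0.748% of all genes. The Gstz1 mean of the PPH vehicle was the highest of 20 liver groups (12.05) and the lowest of 20 kidney groups (9.46). How far these vehicle levels enter the difference was not tested. Hgd differed by −0.33 with PPH (limma adjusted p 0.204), and Hpd by −0.35 with MCHM at 500 mg/kg (95% interval −0.54 to −0.17, limma adjusted p 0.136). Tat was left out, since its kidney values lay under the filter level on every array and no kidney response of it could be measured.

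For MCHM limma called 0 of 4 genes against 0.0759% of all genes, with 2 at an unadjusted p under 0.05. For crude MCHM it called 0 of 4 against 0.0587%, with 1 at an unadjusted p under 0.05. Since 66 rat numbers occur in both tissues, the comparison was repeated on liver minus kidney differences within rats. It used only rats with both arrays in use, 27 MCHM, 16 crude MCHM and 22 PPH pairs over all doses. Rats with 1 tissue dropped out, so the rats differ from those of the main fit. There Gstz1 with PPH had −0.64 (limma adjusted p 0.0164) and Hpd with MCHM −0.32 (limma adjusted p 0.188). The Gstz1 call was kept in all 49 fits that left out 1 array.

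Chemicals were compared as differences of their changes from vehicle at the doses they share, 28 comparisons of 5 liver or 4 kidney genes each. With limma 0 of these tests passed, and 18 of them (14.3%) had an unadjusted p under 0.05, against 6.63% over all genes. MCHM and crude MCHM differed most for Tat at 500 mg/kg in liver, where MCHM minus crude MCHM was 1.22 (95% interval 0.18 to 2.27, limma adjusted p 0.997), a gap known when the genes were chosen. For Hpd, Hgd, Gstz1 and Fah at that dose in liver the MCHM and crude MCHM changes were 0.13 and 0.14, 0.21 and 0.23, −0.02 and 0.00, and 0.06 and 0.02. The background share was 0 for MCHM minus crude MCHM at 0.1 to 500 mg/kg in liver and at 0.1 to 300 mg/kg in kidney, and 0.0261% at 500 mg/kg in kidney.

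PPH, an aromatic glycol ether, where MCHM is an alcohol on a saturated ring, was set against MCHM at 1, 10, 100 and 500 mg/kg. For Tat at 500 mg/kg in liver PPH minus MCHM was −1.90 (95% interval −2.92 to −0.89, limma adjusted p 0.134). For Hpd in kidney it was −0.32, −0.36, −0.40 and −0.56 from 1 to 500 mg/kg, with an interval of −0.85 to −0.27 and a limma adjusted p of 0.206 at 500 mg/kg. Gstz1 in liver at 10 mg/kg was at −0.26 (limma adjusted p 0.299). For Tat in liver it was −1.30 at 10 mg/kg and −1.24 at 100 mg/kg. The single intervals excluded 0 for Tat at 10, 100 and 500 mg/kg and for Gstz1 in liver at 10 mg/kg. They also did so for Hpd in kidney at all 4 doses, and 0 of these passed over all genes. These are differences of changes, so gaps between vehicles enter them. Gstz1 averaged 11.86 in both sets at 10 mg/kg, with vehicles at 12.05 (PPH) and 11.79 (MCHM). Tat averaged 9.41 with PPH and 9.52 with MCHM at 10 mg/kg, 9.42 and 9.48 at 100 mg/kg, and 9.33 and 10.05 at 500 mg/kg. Its vehicles averaged 9.85 and 8.67. Hpd in kidney averaged 12.12 and 12.34 at 1 mg/kg and 12.13 and 12.59 at 500 mg/kg, with vehicles at 12.20 and 12.10. The background share of PPH minus MCHM was 0.0086% at 10 mg/kg and 0.0344% at 500 mg/kg in liver and 0 at the remaining doses, and that of PPH minus crude MCHM was 0.0956% at 500 mg/kg in kidney and 0 elsewhere.

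The vehicle groups themselves differed between the chemical sets. In liver Tat averaged 9.85 ± 0.61 (SD, n = 5) in PPH vehicle rats and 8.67 ± 0.30 (SD, n = 5) in MCHM vehicle rats, a difference of 1.18 (95% interval 0.50 to 1.86, limma adjusted p 0.0094). The gap between these corn oil groups was nearly as large as the change of Tat with 500 mg/kg MCHM. Against crude MCHM vehicle rats (8.75 ± 0.54, SD, n = 4) the PPH vehicle was 1.10 higher (limma adjusted p 0.0758). Gstz1 in liver averaged 12.05 ± 0.07 in PPH vehicle rats and 11.79 ± 0.07 in MCHM vehicle rats (SD, n = 5 each), a difference of 0.26 (limma adjusted p 0.0005).

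In kidney the direction for Gstz1 was the opposite. It averaged 9.46 in PPH vehicle kidneys and 9.72 in MCHM vehicle kidneys, a difference of −0.26 (limma adjusted p 0.0062), and Fah averaged 10.99 and 11.20, a difference of −0.21 (limma adjusted p 0.0289). Over 6 vehicle comparisons 4 of 27 gene tests passed, against 14.5% over all genes, and 9 (33.3%) had an unadjusted p under 0.05, against 26.6%. The backgrounds were high: in liver 17.4% of all genes for PPH minus MCHM, where 2 of 5 passed, 11.4% for MCHM minus crude MCHM and 2.55% for PPH minus crude MCHM, with 0 of 5 in each and 1 and 2 at an unadjusted p under 0.05. In kidney they were 31.5% for PPH minus MCHM, where 2 of 4 passed, 22.3% for MCHM minus crude MCHM and 1.76% for PPH minus crude MCHM, with 0 of 4 in each and 0 and 1 at an unadjusted p under 0.05. Fah in kidney kept its call in 64 of 69 fits that left out 1 array. The chemical sets and whatever else separated them cannot be told apart, and so each chemical was set against its own vehicle.

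**Figure D5:**
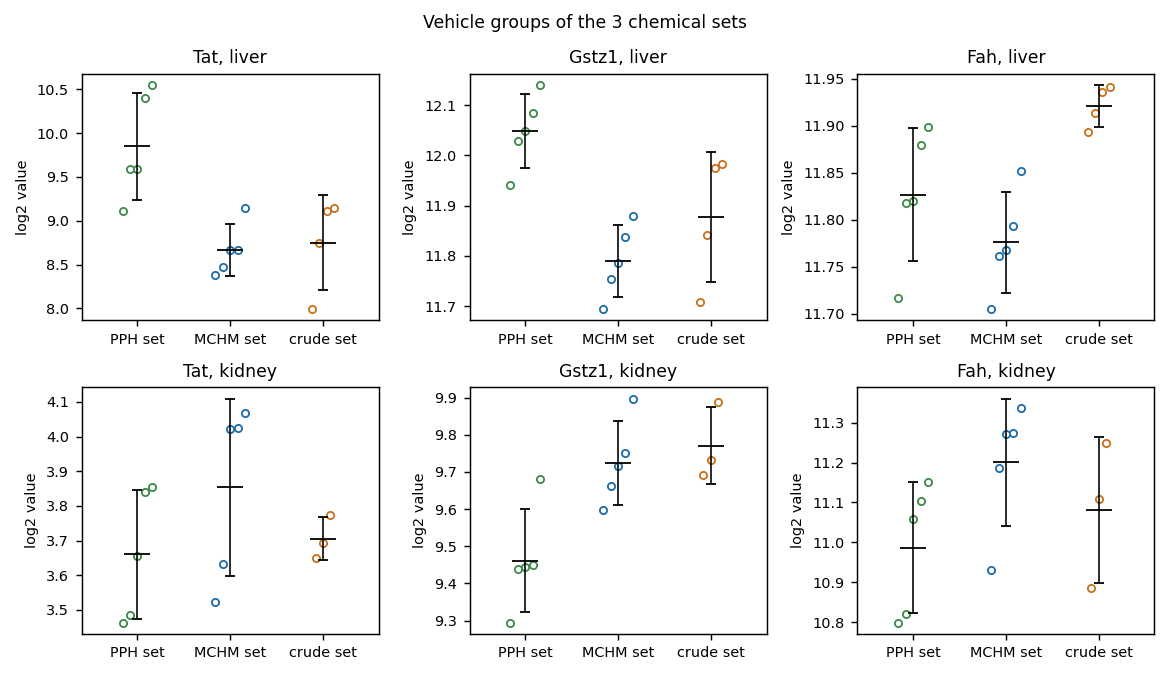
Log2 values of Tat, Gstz1 and Fah in the corn oil vehicle arrays of the PPH, MCHM and crude MCHM sets in liver (top) and kidney (bottom); bars are mean and SD, and each panel has its own axis. Tat in liver averages 9.85 in the PPH set and 8.67 in the MCHM set, and Tat in kidney is under the filter level of 4.66 in all sets.

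Neighbouring amino acid pathways gave a frame for these changes at the highest dose. At 500 mg/kg MCHM in liver limma called 0 of 6 genes of phenylalanine hydroxylation and its cofactor (median change 0.05), 0 of 8 other tyrosine and fumarylacetoacetate-like enzymes (0.12), 0 of 8 tryptophan breakdown genes (0.06) and 0 of 5 histidine and serine breakdown genes (0.11), beside a median of 0.01 over all genes. Phenylalanine hydroxylase itself was not measured by a probe set of 1 symbol. Of 8 glucocorticoid and fasting genes known to move with Tat in liver 0 were called (median 0.02), and of 9 clock genes 0 were called (0.04). The smallest adjusted p of each list belonged to the cofactor regulator Gchfr (0.08), Fahd1 (0.18), the kynurenine formamidase Afmid (0.21), the serine dehydratase Sds (0.58), the kinase Sgk1 (1.20) and the clock factor Npas2 (0.28), with limma adjusted p of 0.249 to 0.725.

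With crude MCHM at 500 mg/kg in liver, urocanate hydratase Uroc1, an enzyme of histidine breakdown, rose by 0.35 (limma adjusted p 0.0167), 1 of 5 in its list (median 0.15, all genes 0.01). The lists of phenylalanine hydroxylation, other tyrosine enzymes, tryptophan, glucocorticoid and clock genes had 0 of 6, 0 of 8, 0 of 8, 0 of 8 and 0 of 9 called, with medians of −0.02, 0.08, 0.06, −0.06 and −0.08. Their smallest adjusted p values were those of Gch1 (−0.13), Fahd2a (0.28, limma adjusted p 0.0786), Afmid (0.30), the glucocorticoid target Tsc22d3 (0.51, limma adjusted p 0.0927) and Per2 (0.18).

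With PPH at 1000 mg/kg in liver the cofactor synthesis gene Pts rose by 0.50 (limma adjusted p 0.0348), 1 of 6 (median 0.11, all genes 0.03). Mif, whose product can tautomerize phenylpyruvates, rose by 0.44 (limma adjusted p 0.0298), 1 of 8 (median 0.11). Tryptophan, histidine and serine, glucocorticoid and clock lists had 0 of 8, 0 of 5, 0 of 8 and 0 of 9 called (medians 0.06, −0.01, −0.06 and −0.14). Leading them by adjusted p were Afmid (0.46, limma adjusted p 0.0614), histidine ammonia-lyase Hal (−0.29), Igfbp1 (1.05) and Bmal1 (0.54).

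In kidney at 1000 mg/kg PPH Pck1, the gluconeogenic enzyme that is also a glucocorticoid and fasting gene, rose by 0.52 (limma adjusted p 0.0323), 1 of 8 (median 0.17, all genes −0.03). The medians were 0.12 for 6 cofactor genes, 0.00 for 8 other tyrosine enzymes, 0.25 for 7 tryptophan genes and 0.37 for 3 histidine and serine genes, each with 0 called, and −0.01 for 10 clock genes with 0 called. Their smallest adjusted p values were those of Pts (0.34), Ddt (0.25, limma adjusted p 0.0549), Haao (0.27), Ftcd (0.62) and Clock (−0.23). At 500 mg/kg in kidney limma called 0 genes of these 6 lists with MCHM, led by Gchfr (0.18), Fahd1 (−0.13), Kmo (0.30), Sds (−0.13), Ppargc1a (−0.16) and Per2 (0.46), and 0 with crude MCHM, led by Dnajc12 (−0.18), Kyat1 (−0.22), Kmo (0.43), Ftcd (0.41), Klf9 (−0.42) and Nr1d1 (−0.98). List medians there were −0.00 to 0.13 with MCHM (all genes 0.02) and −0.15 to 0.17 with crude MCHM (all genes −0.05). The lists were chosen with earlier results of these data known, so that these counts are descriptions.

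The genes whose values followed each member most closely over arrays of a tissue were named by Pearson's r after each array was centred on the vehicle mean of its own chemical set. This is a description over arrays that share dose groups. For Tat in 81 liver arrays they were Inhbe (0.82), Noct (0.81) and Trib3 (0.75). For Hpd they were Stard10 (0.58), Gcn1 (0.55) and Pdzk1 (0.52), for Hgd Atp1b1 (0.61), Abhd1 (0.59) and Ociad2 (0.58), for Gstz1 C1qbp (0.57), Agxt2 (0.52) and Fam168b (0.51), and for Fah Skic2 (0.72), Sil1 (0.67) and Rnpepl1 (0.65). In 69 kidney arrays Hpd was followed by Cyp4a1 (0.77), Smlr1 (0.77) and Cyp2e1 (0.76), Hgd by Acy3 (0.85), Mep1b (0.84) and Slc39a8 (0.81), Gstz1 by Cyp4a3 (0.77), Upb1 (0.73) and Iyd (0.72), and Fah by Mep1b (0.80), Oat (0.79) and Hsd11b1 (0.79).

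Among the members themselves, in kidney r was 0.73 between Hgd and Fah, 0.65 between Gstz1 and Fah, 0.64 between Hgd and Gstz1 and −0.47 between Hpd and Hgd. The PPH vehicle mean, on which every PPH kidney array was centred, was the lowest of 20 kidney groups for Hgd, Gstz1 and Fah. How far this shared centre enters these r values was not tested. In liver the pair farthest from 0 was Tat and Fah at −0.40, followed by Hpd and Hgd at 0.36. The difference between the tissues was not tested.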

How the data were processed

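Male rats were dosed as described above, and RNA of liver and kidney was hybridized to 1 Affymetrix array per tissue sample. The deposited log2 values are those of RMA, per the submitters' processing notes, which state no version. Genes were named from the platform annotation, where 20832 of 31099 probe sets carry 1 symbol, 436 several and 9831 none. Nothing was normalized again in the values reported. In R 4.3.3 the brightest probe set per gene and tissue was kept. Genes above the 40th percentile of a tissue's values (cutoffs of 4.69 for liver and 4.66 for kidney), on no fewer than 3 arrays, were tested with limma 3.58.1 (lmFit, eBayes), with Benjamini-Hochberg adjustment over all genes tested, a threshold of 0.05 and 95% intervals. Each tissue and chemical had its own fit of doses against vehicle and of a trend over dose ranks. Differences between chemicals and vehicles came from 1 fit of all groups of a tissue, and differences between tissues from 1 fit of both, read for the 4 members above the filter in each tissue. Marker list values are means of log2 values per array. The scripts were tested on simulated data.

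Titles number the rats, both tissues were taken from each animal at the end, and all 66 numbers seen in both tissues lie in the same dose group, so they pair the tissues. Deviations of same-numbered samples from their group means correlated at 0.039 to 0.294 in 27 MCHM pairs, −0.076 to 0.219 in 16 crude MCHM pairs and 0.055 to 0.260 in 22 PPH pairs. Groups within a tissue share no numbers. The named genes are the 5 members, list members past the threshold or with the smallest adjusted p of their list, and the 3 genes most like each member by Pearson's r. The members and lists were chosen with earlier results of these data known. Alternatives were array weights, all chemicals in 1 fit, quantile normalization again, dropping the filter and averaging a gene's probe sets. Others were the left-out array included, liver minus kidney differences within rats that had both tissues, and each array left out.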

Additional observations from a re-analysis of the deposited data

Results flagged for a closer look

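Single rats stood apart from the rest of their group in 13 tests of a member within a group of 4 or 5 arrays, 9.35% of such tests, by Dixon's criterion at the 95% level, where chance gives about 1 in 20 tests, or 6.95. In liver Tat was 10.06 in rat PPH-225 at 100 mg/kg PPH, above the 3 others. Hpd was high in replicate 23 at 10 mg/kg MCHM (13.14) and in PPH vehicle rat PPH-206 (13.15), and low in replicate 40 at 500 mg/kg MCHM (12.94) and rat PPH-214 at 1 mg/kg PPH (12.97). Hgd was high in crude MCHM vehicle rat Crude_MCHM-104 (10.98). Gstz1 was high in replicate 14 at 0.1 mg/kg MCHM (12.02) and low in rat Crude_MCHM-129 at 100 mg/kg crude MCHM (11.71).

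In kidney Hgd was low in MCHM vehicle replicate 3 (10.47) and in replicate 25 at 10 mg/kg MCHM (10.59), and high in rat PPH-236 at 1000 mg/kg PPH (11.36), the rat without which the Hgd call at that dose was lost. Gstz1 was high in replicate 19 at 1 mg/kg MCHM (9.78), and Fah in rat PPH-215 at 10 mg/kg PPH (11.24). Replicate 40 at 500 mg/kg MCHM, low for Hpd in liver, had the highest Tat value of its liver group.

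The change of Gstz1 from vehicle differed between the 2 tissues at 1000 mg/kg PPH, by the limma test of the difference itself (liver minus kidney −0.59). Its PPH vehicle mean was the highest of 20 groups in liver (12.05) and the lowest of 20 in kidney (9.46).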

How the results depend on the processing

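No called value of a member changed sign in any alternative. Of 38 member values 7 changed sign in at least 1 setting, and 0 of them were called there or as reported: all 7 turned in fits that left out 1 array, and 3 of them also in another setting. They were the changes of Tat with 500 mg/kg crude MCHM (0.16, down to −0.11) and 1000 mg/kg PPH (0.06, down to −0.16) in liver, of Gstz1 with both MCHM products and Fah with crude MCHM in liver, and of Hgd and Fah with MCHM in kidney, the last 5 all small to begin with (−0.02 to 0.04). Averaging all probe sets of a gene changed no call, and a second-brightest probe set could not be used since each member has 1. In liver the share of all genes called at 500 mg/kg MCHM (0.512%), 500 mg/kg crude MCHM (0.675%) and 1000 mg/kg PPH (1.75%) was 0.288%, 0.45% and 1.06% with no filter and 1.15%, 1.14% and 2.99% with all chemicals in 1 fit, and array weights raised it to 1.53% for MCHM and 1.70% for crude MCHM. In kidney it was 0.541% for MCHM and 2.12% for crude MCHM with array weights and 0.0435% and 2.17% with all chemicals in 1 fit, against 0.0177% and 0. Array weights also called 1 member between chemicals at 500 mg/kg in liver and 1 between tissues for MCHM, Hpd (−0.37, limma adjusted p 0.0325), each 0 without weights. With all chemicals in 1 fit, members called in the liver MCHM trend went to 0 of 5.

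The kidney MCHM calls depended on single choices. With the misplaced array included as deposited, 0 members and 0% of genes were called at 500 mg/kg and 0 members in the trend, and the kidney vehicle differences of Fah and Gstz1 between PPH and MCHM had limma adjusted p of 0.37 and 0.855. Without the 2 kidneys high in fat markers, 0 members and 0% of genes were called at 500 mg/kg and 0 members in the trend. With no filter 1 member was called in that trend, since Gstz1 had a limma adjusted p of 0.0595. Quantile normalization again took Fah in the kidney vehicle comparison to −0.19 (limma adjusted p 0.0722). The misplaced array holds values of other probe sets, and with it the Hpd change at 500 mg/kg stayed at 0.48. The cause of the other shifts was not tested.

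With liver minus kidney differences within rats, 0 members were called between tissues for MCHM, 0 for crude MCHM and 1 for PPH. No call changed.

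Leaving out 1 array at a time gave shares of genes called of 0.168% to 0.591% at 500 mg/kg MCHM, 0.202% to 1.17% at 500 mg/kg crude MCHM and 0.574% to 1.91% at 1000 mg/kg PPH in liver, and of 0% to 0.071%, 0% to 1.84% and 0.861% to 3.21% in kidney. The 1.84% came without vehicle rat Crude_MCHM-104. Members called ranged from 0 to 1 at 500 mg/kg MCHM in liver and in kidney, from 1 to 3 at 1000 mg/kg PPH in kidney, from 0 to 1 in the liver MCHM and crude MCHM trends and from 0 to 2 in the kidney MCHM trend. Under the 5 other settings Tat at 500 mg/kg MCHM in liver stayed between 1.38 and 1.47 and past the threshold in each. The number of arrays limits all of these values, above all the crude MCHM kidneys with 2 or 3 arrays a group.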
